A study of Mus musculus with 8 samples.

Results

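The genes described here are 10 transcripts of the ATF4 and amino acid response: Atf4, Atf5, Asns, Trib3, Ddit3, Chac1, Sesn2, Psat1, Phgdh and Vldlr. They were taken by name from the 19938 genes with a probe set naming a single gene, and all 10 were measured, each by 1 such probe set. RNA came from livers of C57BL6 mice fasted for 17 h and was hybridised to 8 Affymetrix Mouse Gene 1.0 ST arrays, a 1-colour platform that reads a transcript through several probes along its length. The hydrogen water group (4 arrays) had drunk water containing dissolved hydrogen for 4 weeks from 7 weeks of age, and the control group (4 arrays) shared the fasting, the strain, housing at 24 degrees C and a cycle of 12 h of light and 12 h of dark. What the control mice drank, their age and the sex of the animals are not stated. The labels give the same treatment text for every sample, so groups follow the sample titles. That each array is a separate animal is not stated outright, and p-values judge group differences against the spread between these samples.

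ATF4 is a basic leucine zipper transcription factor that cells make when the translation factor eIF2α is phosphorylated. The kinase GCN2 does this when uncharged tRNAs accumulate in amino acid shortage, and PERK does it under endoplasmic reticulum stress. The Atf4 mRNA carries upstream open reading frames that hold its translation low until then, so much of the control of ATF4 lies outside the mRNA level that an array reads. Its targets replenish amino acids, slow growth signalling and, under lasting stress, promote cell death. In the liver this response is known for its part in adaptation to low dietary protein and to endoplasmic reticulum stress.

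Many ATF4 targets carry a C/EBP-ATF response element, a joined site for ATF4 and a C/EBP partner. The core TGATGNAA was searched on both strands of RefSeq promoter windows of the assembly GRCm38.p6, each holding 250 bases before and 50 bases after a transcription start. All 10 genes had a window, and 3 of them (Atf5, Psat1 and Vldlr) had 2 windows. A match was present in 4 of these 13 windows, belonging to 4 of the 10 genes, whereas 3.97% of all 32851 windows and 4.51% of all genes in the table held one. The windows around the 3 matches that lie before a start are printed below because they carry the sequence through which ATF4 is known to act, 5′ to 3′ on the strand of the gene, with the match in capitals.
Asns, chr6:7693210-7693272, minus strand: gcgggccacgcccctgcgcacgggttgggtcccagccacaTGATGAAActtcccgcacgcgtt
Chac1, chr2:119351009-119351096, plus strand: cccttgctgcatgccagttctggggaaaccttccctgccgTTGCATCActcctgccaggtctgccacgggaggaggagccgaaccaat
Vldlr, chr19:27216809-27216838, plus strand: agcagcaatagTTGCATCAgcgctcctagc
The Asns match begins 23 bases before the start and reads in the direction of the gene. The Chac1 and Vldlr matches begin 193 and 200 bases before a start and lie on the opposite strand, where both read TGATGCAA. The Vldlr match belongs to the window of the downstream of its 2 annotated starts. Trib3 had a match after its start, at base 15, which reads TTACATCA on the strand of the gene. The windows of Atf4, Atf5, Ddit3, Sesn2, Psat1 and Phgdh held no match to these letters, which says nothing of sites elsewhere. A match describes the letters and is not a measured binding site.

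The labelled tissue was checked on hepatocyte markers. The 7 measured hepatocyte markers of 8 listed, among them Alb and Apoa1, all lay far above the median of the genes tested (mean log2 signals of 12.58 to 14.43 against 5.87), and their mean deviation stayed within −0.03 to 0.07 on each array. Over all genes, the mean correlation of control 3 with the other controls was 0.989, below the 0.992 to 0.994 that the remaining arrays had with theirs. It also received the lowest of limma's array weights (0.42), which are smaller for arrays whose genes lie farther from their group means, followed by hydrogen water 4 (0.73). Hydrogen water 2 had the next weight (0.81). The mean correlation of hydrogen water 4 with its group (0.992) equalled those of control 2 and hydrogen water 2. For the 10 genes and the role lists, values are also given without control 3 and hydrogen water 4. All values are log2 signals as deposited, and since probes differ in brightness no order of levels between genes is drawn from them. The question was whether the livers of the hydrogen water group differed from controls in this pathway.

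None of the 10 genes passed the test between the groups. In limma, fitted to all 19938 genes with Benjamini-Hochberg adjustment, 0 of the 10 had an adjusted p under 0.05, and their adjusted p ran from 0.687 to 0.99. Over all genes the count was also 0 (0% called), with a lowest adjusted p of 0.558. At an unadjusted p under 0.05 there was 1 of the 10, Atf5, on the higher side, beside 7.17% of all genes in either direction and 3.6% on the higher side. With all 70 ways of assigning arrays to groups enumerated in an exact permutation test, 0 of the 10 reached p under 0.05, beside 3.76% of all genes; the smallest p that design allows is 0.0286. In none of the 10 did the 4 values of a group lie wholly apart from those of the other, beside 3.76% of all genes. With hydrogen water 3 genes had a higher and 7 a lower mean, beside 48.7% of all genes higher and 51.3% lower, and the median difference was −0.03 against −0.00 over all genes.

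**Figure D1:**
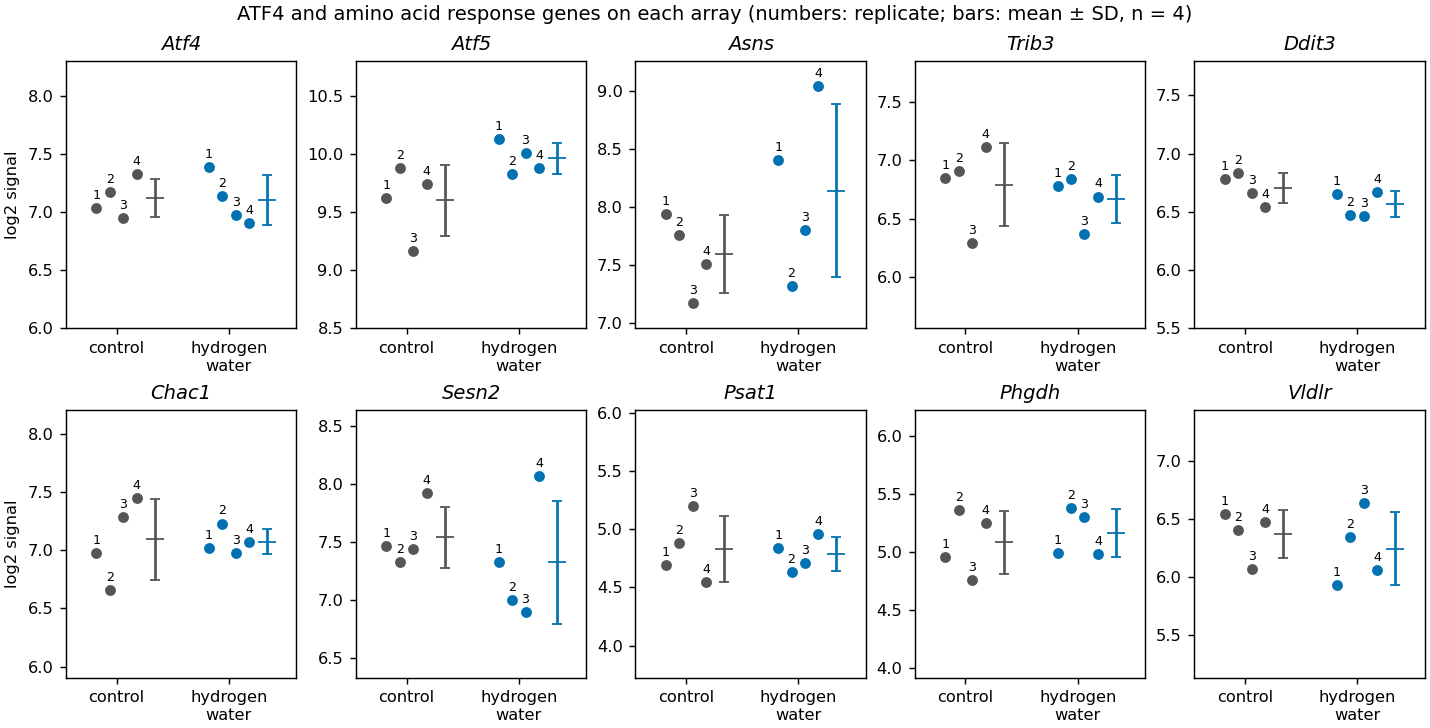
Log2 signal (vertical axis, with the same span in every panel) of the 10 genes on each array. Points are arrays labelled by replicate number, grey for control and blue for hydrogen water, and bars give the mean ± SD (n = 4). The groups overlap in every panel, and Asns spreads furthest, from 7.17 on control 3 to 9.04 on hydrogen water 4.

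The transcription factors of the set come first. Atf4 (transcript cluster 10425364) stood at 7.04, 7.17, 6.95 and 7.33 on controls 1 to 4 and at 7.39, 7.14, 6.98 and 6.91 on hydrogen water 1 to 4. Hydrogen water held both the highest and the lowest of the 8 values. Controls averaged 7.12 ± 0.17 (SD, n = 4) and hydrogen water 7.10 ± 0.21 (SD, n = 4), which differ by −0.02 (SE 0.13, 95% interval −0.30 to 0.26, or 0.81- to 1.20-fold). Its spread was ordinary: 41.9% of all genes had a larger SD within groups.

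Atf5 (transcript cluster 10562905) encodes a related zipper factor whose mRNA is also translated under eIF2α phosphorylation, and which takes part in the mitochondrial stress response. Its signals were 9.62, 9.88, 9.17 and 9.74 on controls 1 to 4 and 10.13, 9.83, 10.01 and 9.88 on hydrogen water 1 to 4. Controls 1, 3 and 4 lay below every hydrogen water array, and control 2 lay above hydrogen water 2 and level with hydrogen water 4 at 2 decimals. Controls averaged 9.60 ± 0.31 (SD, n = 4) and hydrogen water 9.96 ± 0.14 (SD, n = 4), which differ by 0.36 (SE 0.15, 95% interval 0.04 to 0.68). It did not pass over all genes (limma adjusted p = 0.687), and the exact permutation test gave p = 0.0857. Control 3, the lowest array, contributed much of it: without control 3 and hydrogen water 4 the difference was 0.24 (95% interval −0.03 to 0.51).

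Ddit3, which encodes CHOP, a factor tied to death under unresolved endoplasmic reticulum stress, varied little (transcript cluster 10366881). Controls 1 to 4 read 6.78, 6.83, 6.66 and 6.54, and hydrogen water 1 to 4 read 6.65, 6.47, 6.46 and 6.67. The 2 highest values were controls and the 2 lowest were hydrogen water, with overlap between. The difference was −0.14 (SE 0.11, 95% interval −0.37 to 0.09), from 6.70 ± 0.13 to 6.56 ± 0.11 (SD, n = 4 each). Most genes varied more: 80.4% had a larger SD within groups.

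Asns, which makes asparagine from aspartate and glutamine, was the most variable of the set (transcript cluster 10543067). It read 7.94, 7.76, 7.17 and 7.51 on controls 1 to 4 and 8.40, 7.32, 7.80 and 9.04 on hydrogen water 1 to 4. Hydrogen water 4 and 1 exceeded every control, while hydrogen water 2 lay below 3 of the 4 controls. The SD within groups, 0.58, was exceeded in 0.757% of all genes, and the range over the 8 arrays, 1.87, in 0.607%. Hydrogen water averaged 8.14 ± 0.75 (SD, n = 4) and controls 7.60 ± 0.33 (SD, n = 4), which differ by 0.54 (SE 0.30, 95% interval −0.12 to 1.20, limma adjusted p = 0.752).

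This difference depended on which arrays were kept. Asns was lowest of all on control 3 and highest on hydrogen water 4, and without both it differed by 0.10 (SE 0.23, 95% interval −0.42 to 0.62). Leaving out 1 array at a time gave 0.24 (without hydrogen water 4) to 0.82 (without hydrogen water 2, limma adjusted p = 0.393). The mean deviation of the 8 Kupffer cell markers was −0.24, −0.19, 0.06 and −0.41 on controls 1 to 4. On hydrogen water 1 to 4 it was −0.17, 0.15, 0.23 and 0.55. Hydrogen water 4 was thus the highest array for these markers and for Asns. Control 3, the lowest array for Asns, was the highest control for the markers. Hydrogen water 1, above every control for Asns, had a negative marker deviation. All 8 of those markers had higher means with hydrogen water, and 0 passed over all genes. Of the 8, 3 had an unadjusted p under 0.05, beside 7.17% of all genes in either direction and 3.6% on the higher side. The 7 sinusoidal endothelial markers were likewise all higher, 3 with an unadjusted p under 0.05, beside the same shares. Of these 7 markers 0 passed the adjusted threshold. Their mean deviation was −0.15 to 0.43 on hydrogen water arrays, 0.15 on hydrogen water 4, and −0.45 to 0.04 on controls. Of the 7 stellate cell and fibroblast markers 2 were higher and 5 lower, and 1 of the 7 had an unadjusted p under 0.05. The mean deviation of these 7 was −0.27 to 0.12 on hydrogen water arrays and −0.06 to 0.20 on controls. Of the 5 measured cholangiocyte markers 1 was higher and 4 were lower, and 0 had an unadjusted p under 0.05. The part of any of these cell types in the Asns values was not tested. In whole liver, a change in the number of cells of a type and a change in RNA per cell cannot be told apart.

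The other 2 biosynthetic genes act in serine synthesis from a glycolytic intermediate. Phgdh, the first enzyme of that route (transcript cluster 10500529), read 4.96, 5.36, 4.76 and 5.25 on controls 1 to 4 and 4.99, 5.38, 5.30 and 4.98 on hydrogen water 1 to 4. Its difference was 0.08 (SE 0.15, 95% interval −0.24 to 0.41). Psat1, the transaminase that follows it (transcript cluster 10466410), read 4.69, 4.88, 5.20 and 4.55 on controls and 4.84, 4.63, 4.71 and 4.96 with hydrogen water, a difference of −0.05 (SE 0.14, 95% interval −0.36 to 0.27). Both had a mean signal below the median of all genes (5.87). Their hydrogen water values lay within the range of the controls except 1 Phgdh array at 5.38 against a highest control of 5.36. A second Phgdh probe set names the locus Gm6756 as well and was left out; it read 5.88 ± 0.11 (SD, n = 4) for controls and 5.80 ± 0.05 (SD, n = 4) for hydrogen water, so it differed by −0.07, opposite in sign.

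Trib3 and Sesn2 act on growth signalling. Trib3, a pseudokinase that feeds back on ATF4 and binds AKT (transcript cluster 10488608), read 6.85, 6.91, 6.29 and 7.12 on controls 1 to 4 and 6.78, 6.84, 6.37 and 6.69 on hydrogen water 1 to 4. Control 3 was the lowest array, and the other 3 controls lay above all hydrogen water arrays. The difference was −0.12 (SE 0.17, 95% interval −0.49 to 0.25) over all arrays and −0.30 (95% interval −0.62 to 0.02) without control 3 and hydrogen water 4, where the groups did not overlap, beside 12.4% of all genes in that comparison.

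Sesn2, a leucine sensor that restrains mTORC1 (transcript cluster 10516932), read 7.47, 7.33, 7.44 and 7.92 on controls 1 to 4 and 7.33, 7.00, 6.90 and 8.07 on hydrogen water 1 to 4. Hydrogen water 4 was the highest of the 8 arrays, and the other 3 of its group equalled or lay below the lowest control at 2 decimals. Controls averaged 7.54 ± 0.26 (SD, n = 4) and hydrogen water 7.33 ± 0.53 (SD, n = 4), which differ by −0.21 (SE 0.23, 95% interval −0.71 to 0.29). Only 2.47% of all genes had a larger SD within groups. Leaving out hydrogen water 4, the highest array, lowers the difference of Sesn2 by construction, to −0.46 when it alone is left out. Without control 3 and hydrogen water 4 the difference was −0.49 (SE 0.17, 95% interval −0.87 to −0.12), with a limma adjusted p of 0.588 over all genes. It was then the only 1 of the 10 with an unadjusted p under 0.05, beside 7.55% of all genes, 3.94% on the lower side.

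Chac1, which degrades glutathione, and Vldlr, a lipoprotein receptor induced in stressed hepatocytes, complete the set. Chac1 (transcript cluster 10474972) read 6.98, 6.66, 7.29 and 7.45 on controls 1 to 4 and 7.02, 7.23, 6.98 and 7.07 on hydrogen water 1 to 4. The hydrogen water values lay inside the control range, and the difference was −0.02 (SE 0.16, 95% interval −0.36 to 0.32). Vldlr (transcript cluster 10462281) read 6.54, 6.40, 6.07 and 6.47 on controls and 5.93, 6.34, 6.64 and 6.06 with hydrogen water. Its hydrogen water arrays lay on both sides of all controls, with a difference of −0.13 (SE 0.16, 95% interval −0.48 to 0.22).

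**Figure D2:**
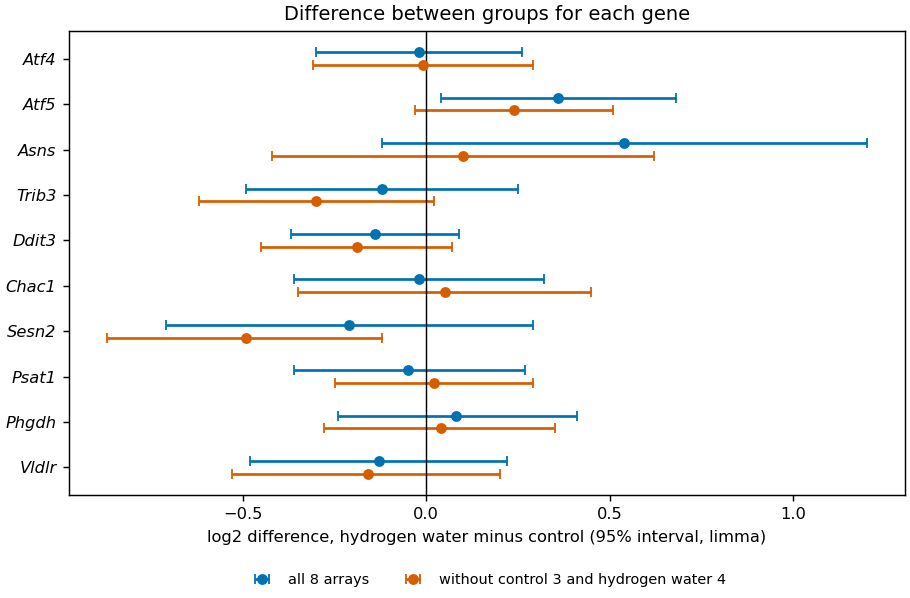
Log2 difference, hydrogen water minus control (horizontal axis), of each gene with its 95% interval from limma, over all 8 arrays (blue) and without control 3 and hydrogen water 4 (orange). Over all arrays only the interval of Atf5 (0.04 to 0.68) lies off 0, and without the 2 arrays only that of Sesn2 (−0.87 to −0.12) does. Leaving out hydrogen water 4, the highest array for Sesn2, lowers its difference by construction.

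The intervals give the sizes of difference compatible with these arrays. For 7 of the 10 genes the 95% interval over all arrays lay within 0.5 of 0 on the log2 scale; the exceptions were Atf5, Asns and Sesn2. Without control 3 and hydrogen water 4, 5 of the 10 had a higher and 5 a lower mean, with a median difference of 0.00. The genes whose values without these arrays are not given above differed by −0.01 (Atf4), −0.19 (Ddit3), 0.04 (Phgdh), 0.02 (Psat1), 0.05 (Chac1) and −0.16 (Vldlr), so that Psat1 and Chac1 changed sign. In that comparison 0 of the 10 passed over all genes, and 3 genes in all did (0.015%): Aqp8, Mir297b and Usp17ld, named here after their values were seen.

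No array was the highest or the lowest for all 10 genes. Control 3 was the lowest of the 8 arrays for 4 of the 10 genes (Atf5, Asns, Trib3 and Phgdh), beside 18.4% of all genes, and the highest for Psat1. Hydrogen water 4 was the highest for Asns and Sesn2 and the lowest for Atf4, beside 16.6% and 15.8% of all genes. The mean deviation of the 10 genes from their own means was −0.19 on control 3, 0.15 on hydrogen water 4 and between −0.07 and 0.10 on the other 6 arrays.

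**Figure D3:**
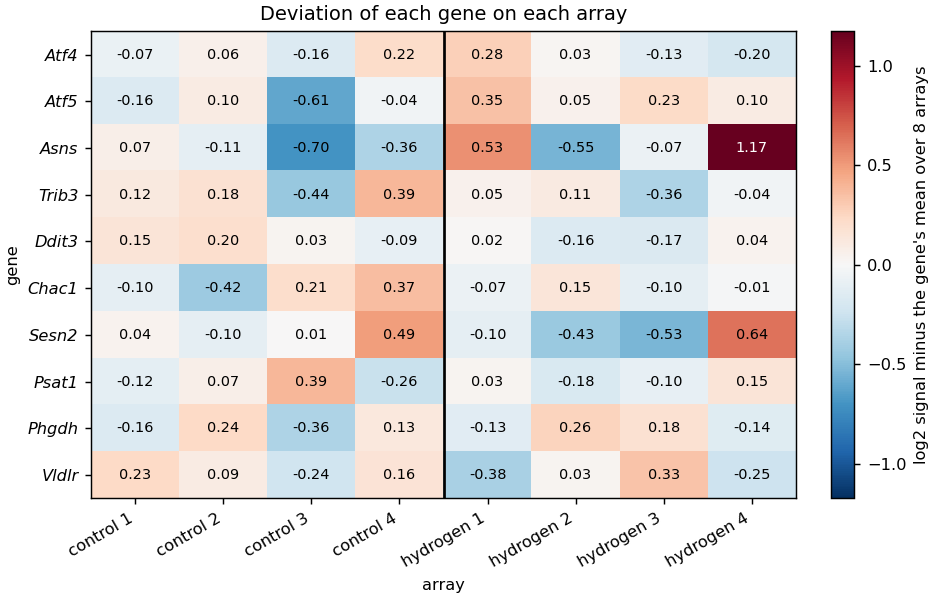
Deviation of each gene (rows) from its own mean over the 8 arrays, in log2 units, on each array (columns; the line parts controls from hydrogen water). The deepest colours belong to Asns, from control 3 to hydrogen water 4; Sesn2 is high on hydrogen water 4 and Atf5 low on control 3, while Ddit3 stays within 0.20 of its mean.

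Pairs of the 10 genes correlated in both directions. Over the 8 arrays, 22 of the 45 pairs had a positive and 23 a negative Pearson correlation, with a median of −0.00 beside 0.00 over all pairs of the 19938 genes. An absolute r of at least 0.7 was reached by 0 of the 45 pairs. Among all gene pairs, 3.79% reached 0.7 and 3.59% reached −0.7. Taken on deviations from group means, some pairs were closer. There r was 0.74 for Asns and Ddit3 and 0.72 for Asns and Sesn2. It was −0.74 for Ddit3 and Chac1, −0.71 for Psat1 and Vldlr and −0.70 for Trib3 and Psat1. On these deviations too, 0 pairs passed the adjusted threshold, and the share of all gene pairs was not computed. By exact permutation over all pairings of the arrays, adjusted over the 45 pairs, 0 pairs passed (lowest adjusted p = 0.807), and 0 had an unadjusted exact p under 0.05 for r or for Spearman's rho.

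Atf4 correlated positively with 4 of the other 9 genes. The closest was Trib3, with r = 0.68 (exact permutation p = 0.0646, adjusted p = 0.807) and rho = 0.67 (exact permutation p = 0.0831, adjusted p = 0.86). It was 0.70 without control 4 and hydrogen water 1, the arrays farthest from the median of Atf4, and 0.62 without control 3 and hydrogen water 4. With Asns, Atf4 had r = −0.10 (exact permutation p = 0.813, adjusted p = 0.915) and rho = −0.05 (exact permutation p = 0.935, adjusted p = 0.977). That r was −0.45 without control 4 and hydrogen water 1 and 0.25 without control 3 and hydrogen water 4, so its sign depended on the arrays. The serine synthesis genes Psat1 and Phgdh had the most negative value, r = −0.69 (exact permutation p = 0.0565, adjusted p = 0.807) and rho = −0.48 (exact permutation p = 0.243, adjusted p = 0.86). Control 3 was the highest array for Psat1 and the lowest for Phgdh. The correlation was −0.38 without controls 3 and 4, the arrays farthest from the median of Psat1, and −0.18 without control 3 and hydrogen water 4. Asns and Sesn2 shared their high value on hydrogen water 4, with r = 0.48 (exact permutation p = 0.227, adjusted p = 0.807) and rho = 0.31 (exact permutation p = 0.462, adjusted p = 0.88). Without hydrogen water 1 and 4, the arrays farthest from the median of Asns, r was −0.07. It was 0.02 without control 3 and hydrogen water 4, and 0.72 on deviations from group means.

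**Figure D4:**
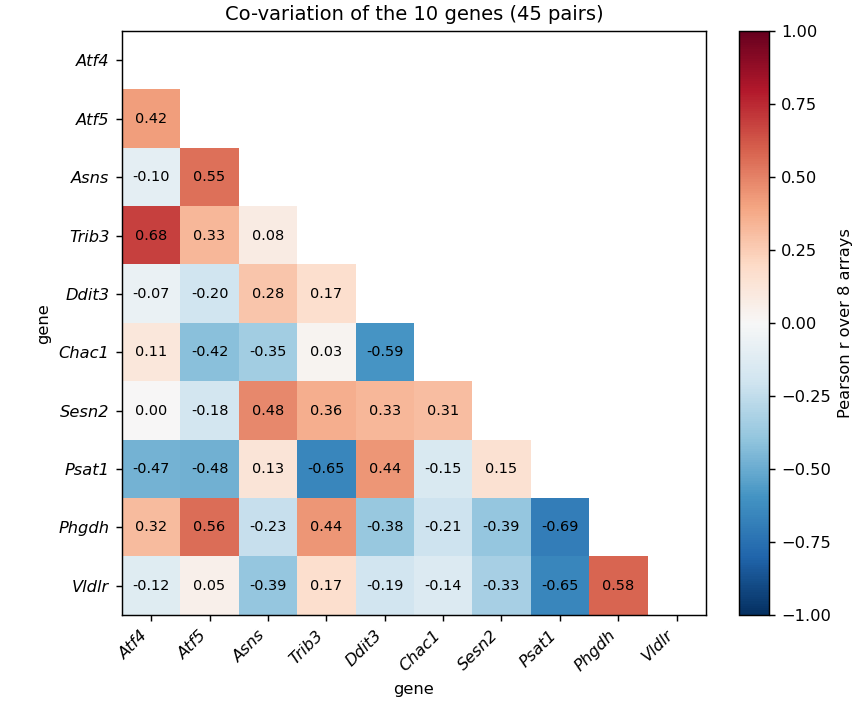
Pearson correlation over the 8 arrays for each of the 45 pairs of the 10 genes (red positive, blue negative). Positive and negative pairs are mixed, from −0.69 for Psat1 and Phgdh to 0.68 for Atf4 and Trib3.

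Provisional gene models aside, 9689 other genes had a mean above the median. Of these, the 5 most like Atf4 over the 8 arrays were Dolk and Trmu (r = 0.95 each), Ormdl3 (0.94), Saysd1 and Jund (0.92 each). Those most like Asns were Ppm1k (0.98), a mitochondrial phosphatase that acts on branched-chain ketoacid dehydrogenase, Setd1b (0.97), Atxn7, Utp14a and Sympk (0.96 each). Without the highest and lowest array of Asns these stood at 0.98 for Ppm1k and between 0.85 and 0.91 for the other 4. They are the highest of 9689 correlations over the same 8 arrays and are given as a description.

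The rest of the pathway was read from 6 lists by role, with 66 of 71 listed genes measured. In limma 0 of the 66 passed over all genes (adjusted p from 0.638 to 0.997). At an unadjusted p under 0.05 there were 4 on the higher side (Nfe2l1, Ddit4, Got1 and Trib1) and 1 on the lower side (Chac2), beside 3.6% and 3.57% of all genes. Their median difference was 0.03, with 39 higher and 27 lower. Without control 3 and hydrogen water 4 the balance turned: 24 were higher and 42 lower, with a median of −0.03, beside 51.2% of all genes lower, and 0 passed. There 0 on the higher and 2 on the lower side (Wars and Herpud1) had an unadjusted p under 0.05, beside 3.61% and 3.94% of all genes.

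Upstream, the kinases and phosphatase subunits that set eIF2α phosphorylation (8 of 9 measured) had 0 called, 4 higher and 4 lower, and a median difference of 0.03 over all arrays and 0.00 without control 3 and hydrogen water 4. Eif2ak2, the kinase PKR that double-stranded RNA activates and interferon induces, differed by 0.46 (SE 0.23, 95% interval −0.05 to 0.97). It stood at 7.25 and 7.60 on hydrogen water 3 and 4 but at 6.63 and 6.52 on hydrogen water 1 and 2, against 6.23 to 6.92 in controls. Gcn1, a ribosome-bound activator of GCN2, differed by 0.20 (SE 0.14). Without those 2 arrays the differences were 0.32 for Eif2ak2 and 0.09 for Gcn1.

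Of the 9 transcription factors, 0 were called, and 5 were higher and 4 lower both over all arrays and without control 3 and hydrogen water 4. Nfe2l1, a regulator of proteasome genes, stood at 9.79, 9.80, 9.60 and 9.95 on controls 1 to 4 and at 10.04, 10.18, 10.02 and 10.19 on hydrogen water 1 to 4. Every hydrogen water array exceeded every control, by a mean of 0.32 (SE 0.11; limma adjusted p = 0.638). Xbp1, a factor of the unfolded protein response, was the other gene on these lists whose groups did not overlap, at 11.60, 11.62, 11.51 and 11.53 in controls and 11.26, 11.49, 11.34 and 11.50 with hydrogen water. Its difference was −0.17 (SE 0.10; limma adjusted p = 0.762), and 2 of 66 non-overlapping genes stand beside 3.76% of all genes. Without those 2 arrays the differences were 0.23 for Nfe2l1 and −0.22 for Xbp1, neither with an unadjusted p under 0.05.

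Serine, glycine, proline and folate enzymes (8 of 10 measured) had 0 called, 5 higher and 3 lower over all arrays, and 3 higher and 5 lower without control 3 and hydrogen water 4. Mthfd2, a mitochondrial folate enzyme, differed by −0.27 (SE 0.14), and Psph, which completes serine synthesis after Phgdh and Psat1, by −0.18 (SE 0.11). Without those 2 arrays the differences were −0.11 and −0.18. The 11 amino acid transporters had 0 called, and their differences lay between −0.12 (Slc7a11, the cystine transporter) and 0.16 (Slc38a1, a glutamine transporter). Slc7a11 and Slc38a1 had mean signals below the median of all genes (5.87), at 3.24 and 4.41 in controls. The balance of the 11 transporters was 5 higher and 6 lower with and without the 2 arrays. Without those arrays the differences ran from −0.18 to 0.20.

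The balance of the aminoacyl-tRNA synthetases and the tRNA exporter Xpot (12 of 13 measured) changed when control 3 and hydrogen water 4 were left out. Over all arrays 8 had a higher and 4 a lower mean with hydrogen water, with a median difference of 0.02. Without control 3 and hydrogen water 4, 0 were higher and 12 lower, with a median of −0.07, beside 51.2% of all genes lower. None passed over all genes in either case. Control 3 was the lowest of the 8 arrays for 6 of the 12, beside 18.4% of all genes. Hydrogen water 4 was the highest for 8, beside 16.6% of all genes. For such genes, leaving out these arrays lowers the difference by construction. Sars, the seryl-tRNA synthetase, read 9.33, 9.34, 8.48 and 9.25 on controls 1 to 4 and 9.36, 9.26, 9.24 and 9.67 on hydrogen water 1 to 4, and its difference went from 0.28 (SE 0.18) to −0.02. Nars, for asparaginyl-tRNA, went from 0.16 to −0.01.

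The other ATF4 targets (18 of 19 measured) had 0 called. Over all arrays 12 were higher and 6 lower, with a median difference of 0.05, but without control 3 and hydrogen water 4 the split was 7 higher and 11 lower, with a median of −0.05. Ddit4, an mTORC1 inhibitor that fasting and glucocorticoids induce, read 7.06, 9.31, 8.01 and 7.29 on controls 1 to 4 and 8.96, 8.61, 8.31 and 9.99 on hydrogen water 1 to 4, a difference of 1.05 (SE 0.45; limma adjusted p = 0.687). Control 2 overlapped with the hydrogen water arrays. Trib1, a pseudokinase related to Trib3, differed by 0.34 (SE 0.13; limma adjusted p = 0.687), opposite in sign to the −0.12 of Trib3. Chac2, a paralogue of Chac1 that also acts on glutathione, differed by −0.42 (SE 0.14; limma adjusted p = 0.638), beside −0.02 for Chac1. Without control 3 and hydrogen water 4 these values were 0.74 for Ddit4, 0.27 for Trib1 and −0.31 for Chac2.

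**Figure D5:**
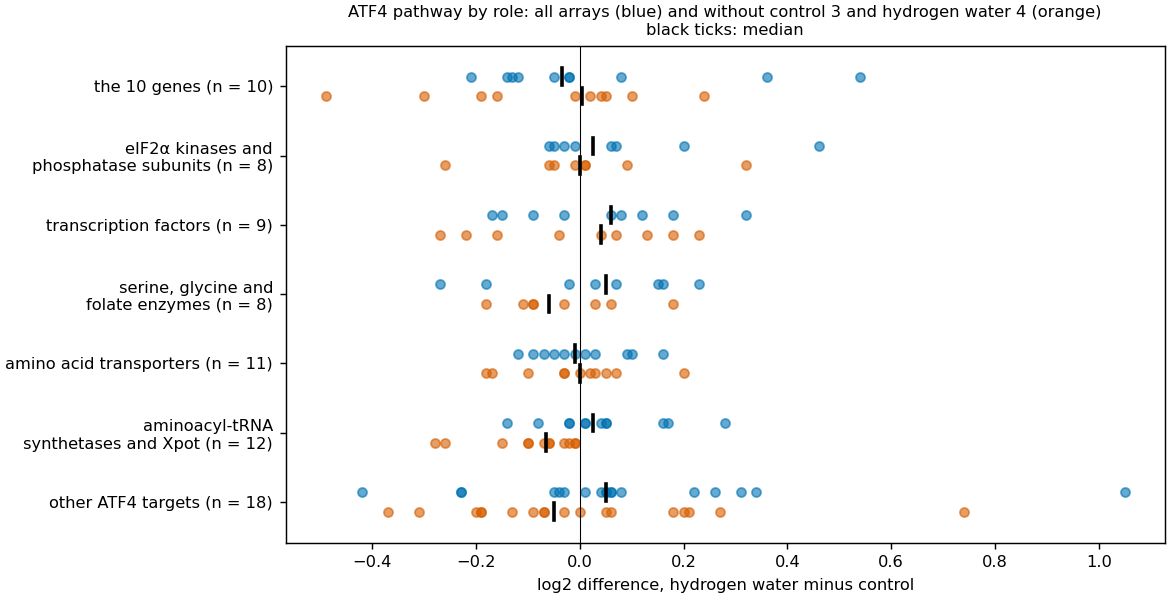
Log2 difference, hydrogen water minus control (horizontal axis), of each gene in the 10-gene set and the 6 role lists, over all arrays (blue) and without control 3 and hydrogen water 4 (orange); black ticks are medians. Medians lie between −0.07 and 0.06, and the synthetases all lie below 0 in the orange row.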

How the data were processed

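The authors deposited 1 table of log2 signals (35556 probe sets, 8 arrays) from Affymetrix Expression Console, as the submitters' processing notes say. Version, normalization and genome build: not given in the sources used here. The log2 scale was read from the values. Array medians lay between 5.27 and 5.36 in controls and between 5.35 and 5.37 with hydrogen water. How the arrays had been scaled before deposit is not stated. Centring each array on its median gave Atf5 a difference of 0.32 (limma unadjusted p = 0.0612). The number of arrays limits the precision.

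Symbols came from the platform annotation, updated by Entrez identifier through RefSeq (GRCm38.p6; 19856 of 19938 genes matched). Probe sets with exactly 1 symbol were kept (21789), and the probe set with the highest mean represented each gene. Groups were compared in R 4.3.3 by limma 3.58.1 (eBayes after lmFit, no covariate, two-sided, 6 residual and 5.88 prior degrees of freedom), with Benjamini-Hochberg adjustment over all genes, and by a two-sided exact permutation test. The limma step was tested on simulated data. Correlations were computed in Python 3.11.15 with numpy 2.4.6.

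The members and lists were chosen with earlier results of these data known. Named genes were the 10 members, the 2 of each role list with the smallest unadjusted p, and the 5 most like Atf4 and Asns; Ddit4, Got1, Wars and Herpud1 were added, after their values were seen, to complete counts. Alternatives changed the scaling (median centring, quantile normalization), the genes or probe sets kept, the variance model, the weights of arrays, the blocking by replicate number, and the arrays included.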

Additional observations from a re-analysis of the deposited data

Results flagged for a closer look

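The gap between the lowest value and the next was large for its group in 1 case among the groups checked. Sars on control 3 read 8.48, against 9.25 on the nearest other control, a gap of 0.89 of the group's range, above Dixon's 95% critical value for 4 arrays. In all, 44 groups of 4 arrays were checked and 1 exceeded that value. About 1 in 20 groups does so by chance. The check did not cover every gene of the role lists. Cth was outside it and read 13.13, 13.19, 12.38 and 13.14 on controls 1 to 4, also with control 3 far below the rest.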

How the results depend on the processing

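Under every alternative run, 0 of the 10 genes and 0 of the pathway genes passed over all genes, and 0 of the 45 pairs passed for r. The number of the 10 with an unadjusted p under 0.05 was 1 over all arrays, 0 with each array centred on its median, 0 by the exact permutation test and 0 to 2 with 1 array left out. Of all 19938 genes, 1429 did so over all arrays, 1598 with centring and 750 by the exact permutation test. With 1 array left out the number of all genes was 958 to 1838. The number whose groups did not overlap was 0 to 1 with 1 array left out (Atf5 without control 2, Trib3 without control 3) and 1 without control 3 and hydrogen water 4. Beside these stand 5.97% of all genes without control 2 and 8.13% without control 3. Without both control 3 and hydrogen water 4 the share was 12.4%. Genes called over the whole table numbered 0 to 1 with 1 array left out (Sucnr1 without control 2, Aqp8 without control 3) and 3 without control 3 and hydrogen water 4; the cause was not tested. The difference of Chac1 changed sign with array weights (0.05) and without control 3 and hydrogen water 4 (0.05), as did that of Psat1 without those arrays (0.02). With 1 array left out, differences ran from −0.11 to 0.05 for Atf4, from −0.16 to 0.10 for Chac1, from −0.14 to 0.08 for Psat1 and from −0.03 to 0.17 for Phgdh; the other 6 genes kept their sign but not their size: Atf5 ran from 0.21 to 0.45, Asns from 0.24 to 0.82, Trib3 from −0.29 to −0.01, Ddit3 from −0.19 to −0.10, Sesn2 from −0.46 to −0.07 and Vldlr from −0.26 to −0.02. The filter on low signals left out Psat1 and Phgdh. Same-numbered arrays of the groups did not deviate together (correlations from −0.16 to 0.06). With the replicate number as a block 0 genes were called. There 1 of the 10 (Atf5) had an unadjusted p under 0.05, beside 1313 of all 19938 genes, and 0 passed.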
